A study of Mus musculus with 23 samples.

Results

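The genes described here are those of mitochondrial and peroxisomal fatty acid oxidation, in scraped colon mucosa of mice whose diet did or did not contain heme. Of the 44 genes listed by name, 41 had a probe set of their own among the 18820 genes measured on the arrays. They were grouped by where their products work, as 19 mitochondrial genes, 15 peroxisomal genes, 5 genes whose products are known in both organelles or in either (Crat, Ech1, Eci2, Amacr and Acad11), and the long-chain acyl-CoA synthetases Acsl4 and Acsl5, which activate fatty acids before either pathway. Acadvl and Acsl3 share their only probe set with a neighbouring gene, and Acsl1 is paired with no probe set in the annotation used, so these 3 genes were not analysed here. The arrays came from 23 male mice, 1 array per mouse, which were 7 to 9 weeks old when they started on the diets. The groups were 6 PPARα KO mice on heme, 6 KO mice on the control diet, 6 WT mice on heme and 5 WT mice on the control diet. KO mice were 129S4/SvJae-Pparatm1Gonz/J, which carry a disrupted Ppara in every cell, and WT mice were 129S1/SvImJ, so the Ppara genotype and the 129 substrain cannot be told apart. Both diets were Westernized, with fat as 40% of the energy and little calcium (30 µmol per g), and heme was added at 0.5 µmol per g for 14 days.

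Fatty acid oxidation shortens an activated fatty acid by repeated cycles of dehydrogenation, hydration, a second dehydrogenation and thiolytic cleavage. Mitochondria take in common long-chain fatty acids through the carnitine shuttle and pass the electrons of the first step to the respiratory chain through the electron transfer flavoproteins, whereas peroxisomes take in very long, branched and dicarboxylic acids through ABC transporters and use oxidases, which form hydrogen peroxide, for the first step. PPARα is a nuclear receptor that binds fatty acids and switches on genes of both pathways in liver, heart and intestine, and Ehhadh and the Acaa1 thiolases of peroxisomes are among its classical targets in rodent liver.

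Values are Robust Multi-array Average signals on the log2 scale, given below on the linear scale where called signals, in arbitrary units. A signal belongs to its own probe set and is not compared between genes. Array medians lay between 5.80 and 5.90 on the log2 scale. Ppara itself had signals of 163 to 238 (median 193) in KO heme-fed mice, 240.0 to 378 (median 313) in KO control mice, 344 to 475 (median 418) in WT heme-fed mice and 444 to 560.2 (median 471) in WT control mice. It was lower in KO mice on heme (log2 fold change -1.06, limma adjusted p = 2.6e-06) and on the control diet (-0.68, adjusted p = 0.00545), with no overlap between the genotypes on either diet. Whether its probes lie in the disrupted exon was not looked up, so this checks the labels only as far as the RNA level goes. The array of KO heme-fed mouse 1 had the lowest mean correlation with its own group of all 23 arrays (0.991, against 0.993 to 0.996 for the others) and is named below where a result rests on it. The tissue held muscle RNA in unequal amounts: the summed signal of 14 smooth muscle markers ran from 3628 to 6232 in KO heme-fed, 3824 to 9747 in KO control, 3987 to 6134 in WT heme-fed and 6886 to 19772 in WT control mice, with WT control mice 1 and 2 highest. In scraped tissue, fewer cells of a type and less RNA per cell cannot be told apart.

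Promoter sequences give the setting of a few of these genes. RefSeq windows (GRCm38.p6) running from 250 bases before to 50 bases after the start were matched for 37 of the 44 listed genes, with 40 windows. Hadha and Hadhb, which encode both subunits of the mitochondrial trifunctional protein, lie head to head on chromosome 5, with starts 273 bases apart. Their windows overlap by 228 bases, shown in capitals in the Hadhb window because one stretch of DNA precedes both genes (chr5:30155003-30155302, plus strand).
Hadhb: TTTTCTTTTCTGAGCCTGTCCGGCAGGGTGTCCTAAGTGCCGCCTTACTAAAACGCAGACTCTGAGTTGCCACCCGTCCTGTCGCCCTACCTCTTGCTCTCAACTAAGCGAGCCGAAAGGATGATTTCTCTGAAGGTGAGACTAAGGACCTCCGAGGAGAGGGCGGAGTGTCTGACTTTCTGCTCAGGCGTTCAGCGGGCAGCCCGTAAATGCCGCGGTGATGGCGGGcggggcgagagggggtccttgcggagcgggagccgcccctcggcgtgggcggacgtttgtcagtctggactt
PPARα binds DNA with RXR at direct repeats spaced by 1 base (DR1). The letters AGGTCANAGGTCA, searched on both strands with up to 2 mismatches, were found in 3 of the 40 windows (7.5%), against 3.86% of all 32851 windows in the table. Whether these shares differ was not tested. The genes were Etfa, Acox2 and Echs1, of which Echs1 missed the threshold given below on heme in both genotypes. The Etfa and Acox2 windows are shown with the match in capitals because both genes rose on heme, in KO as well as WT mice (Etfa at chr9:55512194-55512493 and Acox2 at chr14:8258790-8259089, both minus strand). In Etfa the match lies on the other strand, 77 to 65 bases before the start, and in Acox2 it lies 9 to 21 bases after a start.
Etfa: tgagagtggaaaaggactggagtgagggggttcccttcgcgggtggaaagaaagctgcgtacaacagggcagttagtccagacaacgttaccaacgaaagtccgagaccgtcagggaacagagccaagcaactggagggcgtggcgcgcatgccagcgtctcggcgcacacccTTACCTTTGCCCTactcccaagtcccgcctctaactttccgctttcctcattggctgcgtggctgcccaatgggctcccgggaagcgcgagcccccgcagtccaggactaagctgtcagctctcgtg
Acox2: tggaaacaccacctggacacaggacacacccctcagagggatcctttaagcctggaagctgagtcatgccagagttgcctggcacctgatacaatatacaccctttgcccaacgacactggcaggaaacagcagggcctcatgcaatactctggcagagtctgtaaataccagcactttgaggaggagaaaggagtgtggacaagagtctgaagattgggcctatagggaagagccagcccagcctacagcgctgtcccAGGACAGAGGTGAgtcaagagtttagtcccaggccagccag
Ehhadh, the gene that differed between the genotypes, has no match to these letters in its window, shown in lower case (chr16:21787785-21788084, minus strand), which says nothing of sites further away.
Ehhadh: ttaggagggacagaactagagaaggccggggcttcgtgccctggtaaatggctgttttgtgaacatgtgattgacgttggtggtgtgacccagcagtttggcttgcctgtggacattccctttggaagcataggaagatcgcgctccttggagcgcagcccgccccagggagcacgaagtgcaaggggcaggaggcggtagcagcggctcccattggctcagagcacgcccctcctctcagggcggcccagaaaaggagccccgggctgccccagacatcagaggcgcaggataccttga
A second motif, TNAAGGTCA, which estrogen-related receptors bind, was searched on both strands without mismatches. It was in 0 of the 40 windows, against 1.28% of all windows. Acaa1a and Acaa1b encode near-identical peroxisomal thiolases, whose probes could share signal, yet their windows align only over 22 bases, of which 18 are identical (capitals) with a gap of 1 base. They are shown because Acaa1b had the larger fold changes (chr9:119341044-119341343, plus strand, and chr9:119157044-119157343, minus strand).
Acaa1a: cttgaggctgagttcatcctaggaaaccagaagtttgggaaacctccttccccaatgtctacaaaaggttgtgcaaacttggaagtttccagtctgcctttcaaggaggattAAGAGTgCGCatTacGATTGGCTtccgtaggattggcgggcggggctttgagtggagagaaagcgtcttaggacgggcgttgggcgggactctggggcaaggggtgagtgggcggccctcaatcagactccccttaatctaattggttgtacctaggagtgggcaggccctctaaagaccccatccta
Acaa1b: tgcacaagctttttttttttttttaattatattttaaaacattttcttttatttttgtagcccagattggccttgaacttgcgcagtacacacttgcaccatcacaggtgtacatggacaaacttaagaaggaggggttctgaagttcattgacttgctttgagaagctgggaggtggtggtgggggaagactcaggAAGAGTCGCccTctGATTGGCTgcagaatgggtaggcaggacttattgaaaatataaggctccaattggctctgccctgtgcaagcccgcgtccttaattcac

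To see what heme did to the pathway in each genotype, heme-fed and control mice were compared gene by gene. A gene was called at a limma adjusted p under 0.01 with a mean signal above 20 in at least 1 of both groups. Heme raised 23 of the 41 genes in KO mice and lowered 0, where 9.23% of all genes measured were called higher and 9.2% lower. In WT mice 22 rose and 1 fell (Acadsb), against 9.6% and 8.29% of all genes. The median log2 fold change of the 41 genes was 0.30 in KO and 0.32 in WT mice, whereas that of all 18820 genes was -0.0082 and -0.0096. Of the 23 genes called in each genotype, 21 rose in both. Acads and Scp2 were called in KO mice alone, Acaa1a and Acadsb in WT mice alone, and 16 genes in neither. Being called in one genotype and not in the other is no difference between them, and the test of that difference called 0 of the 41 genes (described below). Heme-fed and control mice did not overlap for 16 genes in KO mice (13.9% of all genes) and for 22 in WT mice (15.1% of all genes).

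**Figure D1:**
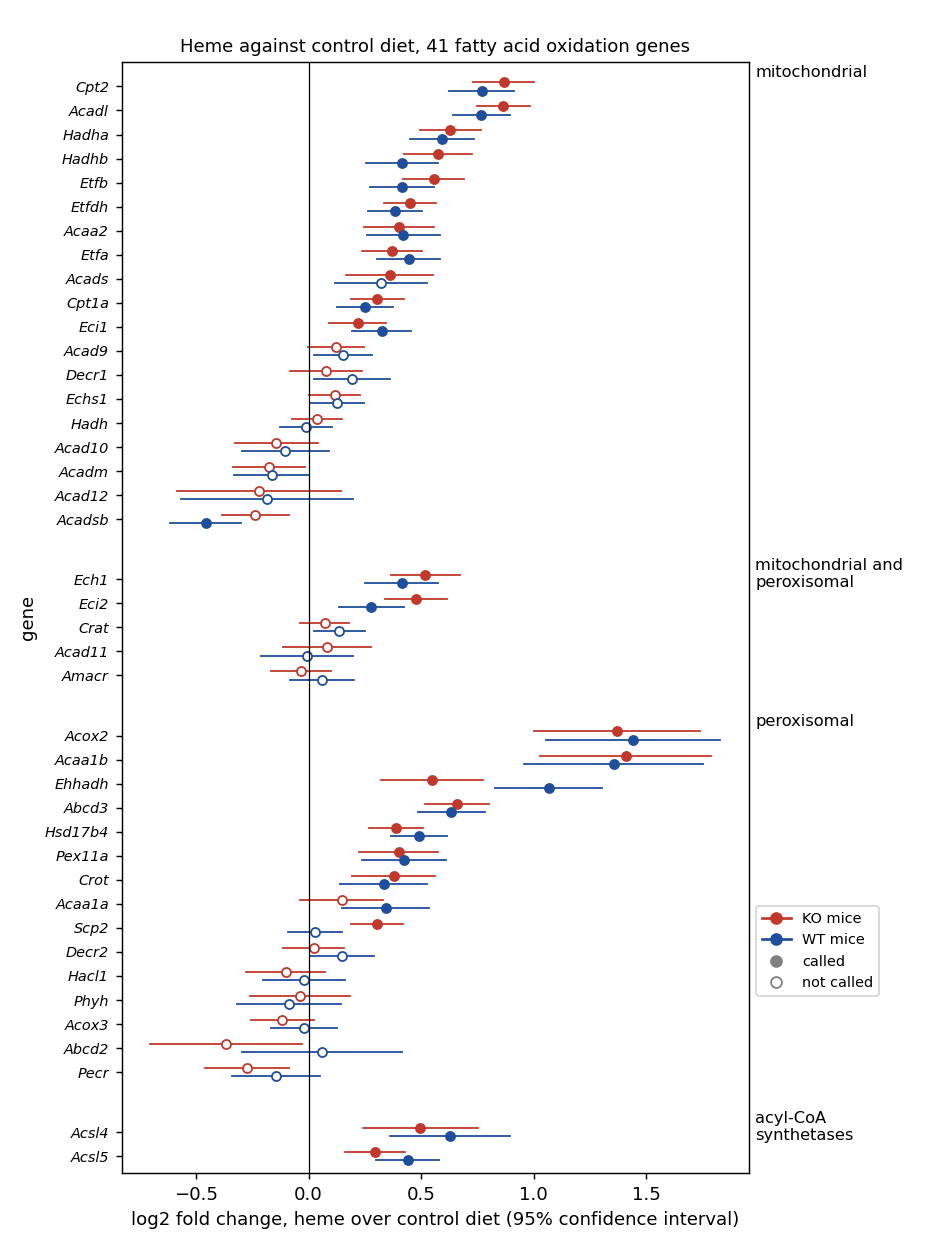
Log2 fold change on heme relative to the control diet for each of the 41 genes (points) with its 95% confidence interval (lines), in KO mice (red, upper) and WT mice (blue, lower), ordered by organelle. Filled points were called, and in both genotypes the largest changes belonged to the peroxisomal genes Acox2 and Acaa1b.

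Smooth muscle RNA moved with the diet. Of the 14 muscle markers 0 rose and 1 fell in KO mice (median log2 fold change -0.50), while 0 rose and 12 fell in WT mice (median -1.14), and 0 of 14 were called in the interaction. WT control mice 1 and 2 had the highest muscle signal, with marker means of 1.28 and 1.63 on the centred log2 scale, against 0.12 to 0.45 in the other 3 WT control mice. Without both, 4 of the markers fell in KO mice (median -0.50) and 2 in WT mice (median -0.59). Marker means ran from -0.552 to -0.022 in WT heme-fed mice and from 0.124 to 1.628 in WT control mice, without overlap. In WT mice muscle signal and diet therefore cannot be told apart. Whether the changes whose calls were lost with the covariate came from muscle was not tested. With the muscle signal of each array as a covariate, 21 of the 41 genes were called in KO mice, all higher, and the calls of Acads and Eci1 were lost. In WT mice 10 were called, all higher, against 6.3% of all genes in either direction, and the median change of mitochondrial and peroxisomal genes was 0.26 and 0.26 in place of 0.32 and 0.33. The 10 genes were Cpt2, Acadl, Hadha and Etfb of mitochondria, Acox2, Acaa1b, Ehhadh, Hsd17b4 and Abcd3 of peroxisomes, and Acsl5, so the other WT calls, those of Cpt1a, Crot, Acadsb, Hadhb, Acaa2, Eci1, Eci2, Etfa, Etfdh, Acaa1a, Ech1, Pex11a and Acsl4, were lost. Leaving out WT control mice 1 and 2 gave 17 higher and 1 lower in WT mice. Without KO heme-fed mouse 1, 23 rose and 1 fell in KO mice. Shares of all genes were not set beside the counts with arrays left out, nor beside the KO count with the covariate. The summed signal of 10 epithelial markers shifted less, with 34350 to 36296 in KO heme-fed, 34546 to 36101 in KO control, 32858 to 35923 in WT heme-fed and 33842 to 36116 in WT control mice. Single epithelial markers went both ways: 2 rose and 2 fell in KO mice (median 0.002), and 1 rose and 2 fell in WT mice (median 0.025).

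The carnitine shuttle rose at both of its mitochondrial enzymes. Cpt2, the inner-membrane carnitine palmitoyltransferase, was one of the most changed mitochondrial genes. Cpt2 signals ran from 1052 to 1422 (median 1339.9) in KO heme-fed mice, against 681 to 748 (median 712) in KO control mice. In WT heme-fed mice they ran from 1120.3 to 1327 (median 1295), against 817, 714, 687, 803 and 686 in the 5 WT control mice. Heme-fed and control mice were far apart in both genotypes, and the log2 fold change was 0.87 in KO mice (95% confidence interval 0.73 to 1.00, limma adjusted p = 2.94e-09) and 0.77 in WT mice (0.63 to 0.91, adjusted p = 4.66e-08), that is 1.82-fold and 1.7-fold. Cpt1a, the outer-membrane enzyme that limits entry of fatty acids, rose less, with log2 fold changes of 0.31 in KO and 0.25 in WT mice, and its WT call was lost without WT control mouse 2 (adjusted p = 0.0146) and with the muscle covariate (0.12, adjusted p = 0.316). Crot, the peroxisomal carnitine octanoyltransferase that exports shortened acyl groups, rose by 0.38 in KO mice and by 0.33 in WT mice, where the call (adjusted p = 0.0091) was lost on leaving out any of 19 single arrays, at adjusted p up to 0.0311, and stood only without WT heme-fed mouse 1 or 5, KO control mouse 5 or KO heme-fed mouse 4. Crat, the carnitine acetyltransferase, was not called (0.073 in KO and 0.14 in WT mice).

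Both acyl-CoA synthetases measured rose in both genotypes. Acsl4 signals ran from 196 to 339 (median 292) in KO heme-fed mice, against 173 to 232 (median 193) in KO control mice. WT heme-fed mice gave 227 to 382 (median 309), against 199, 203, 161, 188 and 219.7 in WT control mice. Acsl4, which prefers arachidonic acid, had the wider spread, and its groups overlapped in KO mice through the low signal of heme-fed mouse 3 (196). For Acsl4 the log2 fold change was 0.50 in KO mice (95% confidence interval 0.24 to 0.75, limma adjusted p = 0.00366) and 0.63 in WT mice (0.36 to 0.89, adjusted p = 0.00078). The KO call was lost on leaving out any of KO control mice 2 and 6 and KO heme-fed mice 2, 4 and 5 (adjusted p up to 0.0124). The WT call was lost with the muscle covariate, at a log2 fold change of 0.69 (adjusted p = 0.0141). Acsl5 signals ran from 585 to 759 (median 682) in KO heme-fed mice, against 523 to 629.8 (median 547) in KO control mice. The WT signals were 646 to 826 (median 776) on heme, against 550.0, 531, 544, 567 and 581 on the control diet. Acsl5, a major intestinal synthetase, overlapped in KO mice as well and did not overlap in WT mice, and the log2 fold change was 0.30 in KO mice (95% confidence interval 0.16 to 0.43, limma adjusted p = 0.00117) and 0.44 in WT mice (0.30 to 0.58, adjusted p = 3.97e-05).

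Among the mitochondrial acyl-CoA dehydrogenases, which carry out the first step for chains of different lengths, the long-chain enzyme was called and the medium-chain one was not. Acadl signals ran from 1098 to 1431 (median 1275) in KO heme-fed mice, against 641 to 747 (median 710.4) in KO control mice. WT heme-fed mice gave 1202 to 1337 (median 1255), against 741, 687, 793, 798 and 706 in WT control mice. Acadl thus lay higher in every heme-fed mouse than in any control mouse of its genotype, and the log2 fold change was 0.87 in KO mice (95% confidence interval 0.75 to 0.99, limma adjusted p = 4.69e-10) and 0.77 in WT mice (0.64 to 0.89, adjusted p = 5.17e-09). Acadm, the medium-chain enzyme, had values of -0.18 and -0.16 and was not called. Acads, the short-chain enzyme, gave 0.36 in KO and 0.32 in WT mice, with a call in KO mice (adjusted p = 0.00536) that was lost on leaving out any of KO heme-fed mice 2 to 6 or KO control mice 3, 4 and 6 (adjusted p up to 0.0174) and none in WT mice (adjusted p = 0.0166). Acad9, Acad10, Acad11 and Acad12, of which Acad9 is also an assembly factor of respiratory complex I, lay between -0.22 (Acad12 in KO mice) and 0.15 (Acad9 in WT mice) with no call.

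Acadsb, the dehydrogenase of short branched acyl-CoA from isoleucine breakdown, had lower signals on heme. Acadsb signals ran from 143 to 156 (median 149) in KO heme-fed mice, against 158 to 191 (median 173) in KO control mice. The WT signals were 111 to 149 (median 124) on heme, against 186, 208, 161, 159 and 166 on the control diet. Heme-fed mice were below control mice without overlap in both genotypes. In KO mice the log2 fold change was -0.24 and missed the threshold (limma adjusted p = 0.0157). In WT mice it was -0.46 (-0.61 to -0.30, adjusted p = 8.95e-05), and with the muscle covariate -0.30 with an adjusted p of 0.0372.

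The trifunctional protein, which completes the cycle for long chains at the inner membrane, rose at both subunits. Hadha signals ran from 2479 to 3323 (median 2955) in KO heme-fed mice, against 1735 to 1979 (median 1921) in KO control mice. In WT heme-fed mice they ran from 2824 to 3382 (median 3058), against 2065, 1870.0, 2046, 2268 and 1914 in the 5 WT control mice. For Hadha the log2 fold change was 0.63 in KO mice (95% confidence interval 0.50 to 0.77, limma adjusted p = 2.99e-07) and 0.59 in WT mice (0.45 to 0.74, adjusted p = 1.43e-06). Hadhb signals ran from 1082 to 1497 (median 1268) in KO heme-fed mice, against 803 to 923 (median 882) in KO control mice. WT heme-fed mice gave 1161 to 1444 (median 1262), against 1038, 860.2, 965, 1007 and 888 in WT control mice. Groups did not overlap for either subunit, and for Hadhb the log2 fold change was 0.58 in KO mice (95% confidence interval 0.42 to 0.73, limma adjusted p = 4.85e-06) and 0.42 in WT mice (0.26 to 0.58, adjusted p = 0.000297). The WT change of Hadhb was 0.375 with the muscle covariate, and its adjusted p was 0.0234. Hadhb has a second, dimmer probe set, which gave 0.58 in KO and 0.41 in WT mice. In the array's numbering the brighter one stands among genes of another chromosome and the dimmer one among genes of chromosome 5, where Hadhb lies. Acaa2, the thiolase for medium chains, rose by 0.40 in KO and 0.42 in WT mice, where the value was 0.37 with the muscle covariate (adjusted p = 0.0253). Echs1 and Hadh, the hydratase and dehydrogenase for shorter chains, were not called (0.12 in KO and 0.13 in WT mice for Echs1, 0.039 in KO and -0.013 in WT mice for Hadh).

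All 3 genes of electron transfer from the first step to the respiratory chain rose in both genotypes. The log2 fold change of Etfa was 0.37 in KO and 0.44 in WT mice, that of Etfb 0.56 and 0.42, and that of Etfdh, the dehydrogenase that hands the electrons to ubiquinone, 0.45 and 0.38. Heme-fed and control mice did not overlap for any of the 3 genes in either genotype. The highest limma adjusted p among these 6 changes was 0.000151, for Etfa in KO mice. With the muscle covariate the WT calls of Etfa (0.33, adjusted p = 0.0152) and Etfdh (0.31, adjusted p = 0.0113) were lost, and that of Etfb stood.

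Peroxisomal genes held the largest changes. Acox2, the oxidase for branched chains and bile acid intermediates, was at a low signal without heme. Acox2 signals ran from 61.4 to 163 (median 119) in KO heme-fed mice, against 34.0 to 51.6 (median 47.0) in KO control mice. In WT heme-fed mice they ran from 97.6 to 166 (median 102), against 34.5, 39.7, 43.3, 47.8 and 43.2 in the 5 WT control mice. Groups did not overlap, and the log2 fold change was 1.37 in KO mice (95% confidence interval 1.00 to 1.74, limma adjusted p = 5.88e-06) and 1.44 in WT mice (1.06 to 1.83, adjusted p = 5.97e-06), that is 2.58-fold and 2.72-fold. KO heme-fed mouse 1 gave 61.4, while the other 5 mice of its group lay at 109.5 or higher. Acox3, an oxidase of branched chains, was not called (-0.12 in KO and -0.019 in WT mice).

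Acaa1b, a thiolase of the last step, was the other gene with changes above 1 on the log2 scale in both genotypes. Acaa1b signals ran from 103 to 286 (median 240.1) in KO heme-fed mice, against 57.9 to 94.0 (median 87.7) in KO control mice. WT heme-fed mice gave 247 to 348 (median 302), against 117, 113, 116, 141 and 96.5 in WT control mice. Groups did not overlap within a genotype, and the log2 fold change was 1.41 in KO mice (95% confidence interval 1.03 to 1.79, limma adjusted p = 6.04e-06) and 1.36 in WT mice (0.96 to 1.75, adjusted p = 1.75e-05). KO heme-fed mouse 1 was again lowest of its group (103), and without it the KO change was 1.62. Its paralog Acaa1a gave 0.15 in KO and 0.34 in WT mice, with a call in WT mice (adjusted p = 0.00791) that was lost on leaving out any WT mouse other than heme-fed mouse 1 and control mouse 3 (adjusted p up to 0.0347). The separate values of this pair are uncertain because of their likeness.

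Abcd3 and Pex11a, at the peroxisomal membrane, rose as well. Abcd3 is the transporter that brings branched and dicarboxylic acyl groups into the peroxisome. Abcd3 signals ran from 1261 to 1817 (median 1627) in KO heme-fed mice, against 947 to 1041 (median 1015) in KO control mice. The WT signals were 1598 to 1928 (median 1808) on heme, against 1199, 1044, 1089, 1264 and 1154 on the control diet. No mouse on heme overlapped with a control mouse of its genotype, and the log2 fold change was 0.66 in KO mice (95% confidence interval 0.52 to 0.80, limma adjusted p = 3.44e-07) and 0.63 in WT mice (0.49 to 0.78, adjusted p = 1.23e-06). Pex11a, which takes part in peroxisome division, rose by 0.40 in KO and 0.42 in WT mice. Its WT call was lost with the muscle covariate (0.23, adjusted p = 0.187) and without both WT control mice 1 and 2 (0.33, adjusted p = 0.0259). Abcd2, a transporter of very long chains with signals near background, was not called (-0.37 in KO and 0.06 in WT mice).

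Ehhadh and Hsd17b4 encode the peroxisomal bifunctional enzymes, which carry out the middle steps. Ehhadh signals ran from 329.9 to 563 (median 502) in KO heme-fed mice, against 300.0 to 374 (median 314) in KO control mice. In WT heme-fed mice they ran from 635 to 869 (median 691), against 335, 302, 378, 362 and 345 in the 5 WT control mice. For Ehhadh the log2 fold change was 0.55 in KO mice (95% confidence interval 0.32 to 0.78, limma adjusted p = 0.000528) and 1.07 in WT mice (0.83 to 1.30, adjusted p = 5.56e-07), that is 1.46-fold and 2.1-fold. In KO mice heme-fed mouse 1 (329.9) overlapped with control mice, and in WT mice the groups did not overlap. Hsd17b4, the enzyme that also handles branched chains and bile acid intermediates, rose by 0.39 in KO mice (adjusted p = 2.44e-05) and 0.49 in WT mice (adjusted p = 3.35e-06), with no overlap in either.

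Scp2 encodes a thiolase for branched chains and a sterol carrier protein. Scp2 signals ran from 225 to 264 (median 247) in KO heme-fed mice, against 170.2 to 226 (median 197) in KO control mice. WT heme-fed mice gave 197 to 219.7 (median 212), against 209, 215, 198, 206 and 205 in WT control mice. It rose in KO mice by 0.30 (0.19 to 0.42, limma adjusted p = 0.000224) with overlap between the groups, while the value in WT mice was 0.031 (-0.089 to 0.15, adjusted p = 0.763). The enzymes of branched chains that act before it, Phyh and Hacl1 of alpha-oxidation and the racemase Amacr, were not called in either genotype, with log2 fold changes between -0.10 and 0.06.

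Of the 6 genes grouped here as auxiliary enzymes acting on unsaturated acyl chains, 3 rose in each genotype, namely Ech1, Eci2 and Eci1. Ech1 signals ran from 978 to 1506 (median 1219) in KO heme-fed mice, against 730.1 to 917 (median 888) in KO control mice. In WT heme-fed mice they ran from 1201 to 1346 (median 1303), against 969, 919.9, 970.3, 1026 and 948 in the 5 WT control mice. Ech1, a dienoyl-CoA isomerase, did not overlap between diets, and the log2 fold change was 0.52 in KO mice (95% confidence interval 0.37 to 0.67, limma adjusted p = 1.79e-05) and 0.41 in WT mice (0.25 to 0.57, adjusted p = 0.000343). Eci2 signals ran from 269.8 to 374 (median 347) in KO heme-fed mice, against 206 to 262 (median 243) in KO control mice. The WT signals were 325 to 347 (median 332) on heme, against 265, 263, 270.3, 298 and 280.0 on the control diet. Eci2, an enoyl-CoA isomerase, had no overlap either, and the log2 fold change was 0.48 in KO mice (95% confidence interval 0.34 to 0.61, limma adjusted p = 1.39e-05) and 0.28 in WT mice (0.13 to 0.42, adjusted p = 0.0041). The WT call of Eci2 was lost without WT control mouse 1, WT control mouse 2 or WT heme-fed mouse 5 (adjusted p up to 0.0138). With the muscle covariate the WT calls of both genes were lost, at 0.39 for Ech1 (adjusted p = 0.021) and 0.24 for Eci2 (adjusted p = 0.115). Eci1, the mitochondrial isomerase, gave 0.22 in KO and 0.32 in WT mice. Its KO call (adjusted p = 0.00865) was lost on leaving out any of 14 single arrays (adjusted p up to 0.0246), and stood only without KO heme-fed mouse 1 or 6, KO control mouse 3, WT heme-fed mouse 1, 2, 4 or 5, or WT control mouse 1 or 2. Its calls in both genotypes were lost with the muscle covariate, at 0.21 in KO mice (adjusted p = 0.0276) and 0.30 in WT mice (adjusted p = 0.0278). The reductases Decr1 and Decr2 and the peroxisomal Pecr, which reduces trans-2-enoyl-CoA, were not called, and Pecr had negative values (-0.28 in KO and -0.14 in WT mice, adjusted p = 0.0242 and 0.288).

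**Figure D2:**
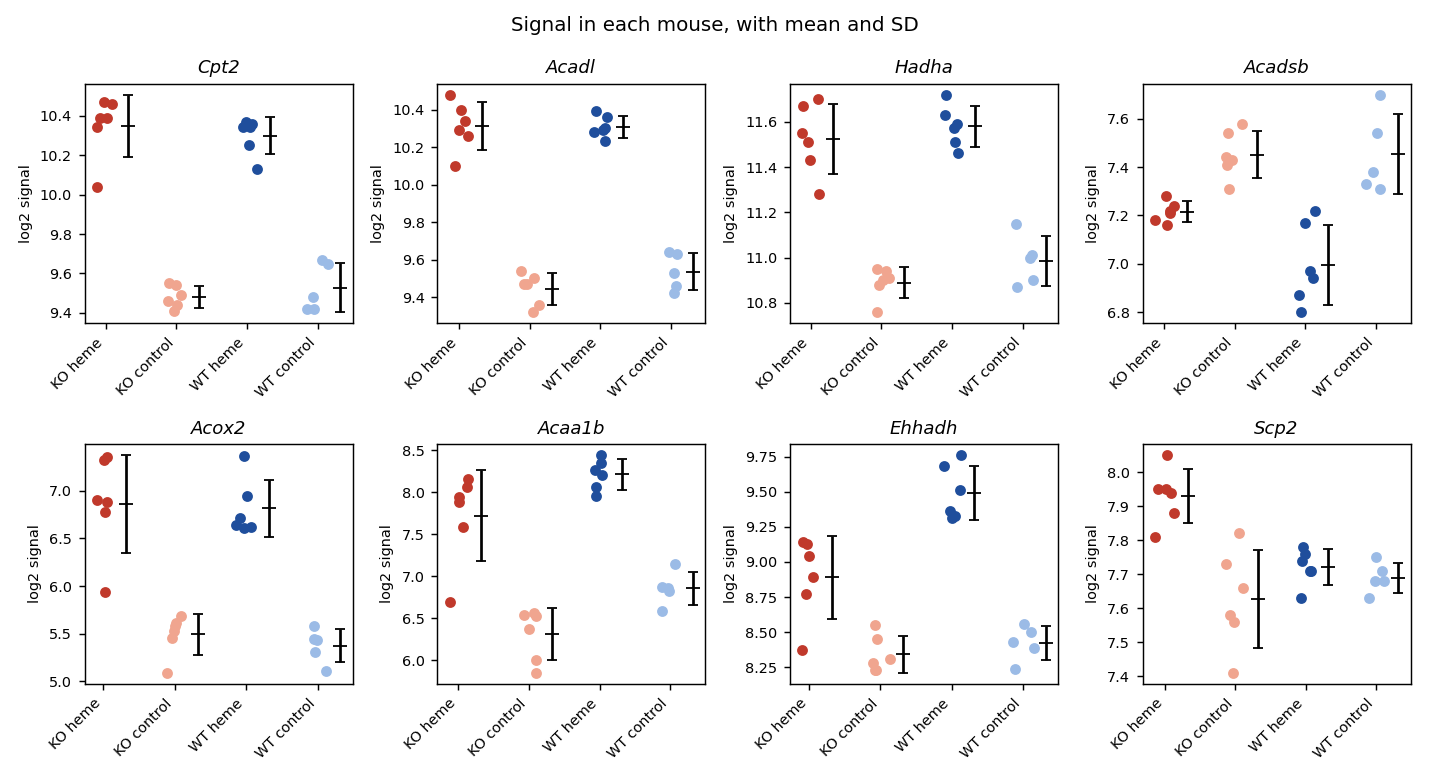
Log2 signal of 8 genes in every mouse (points), with the group mean and SD (bars), for KO heme-fed (n = 6), KO control (n = 6), WT heme-fed (n = 6) and WT control mice (n = 5). Cpt2, Acadl and Hadha separated by diet without overlap in both genotypes, whereas Ehhadh was higher in all WT heme-fed mice than in any KO heme-fed mouse.

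To see what the loss of PPARα did at a fixed diet, KO mice were set against WT mice. On heme 0 of the 41 genes were called higher in KO mice and 1 lower, where 0.234% of all genes were called in either direction. At an unadjusted p under 0.05 there were 8 genes, 6 of them lower in KO mice, against 2289 of all 18820 genes. On the control diet 0 were called by limma, where 0.0531% of all genes were, and 7 had an unadjusted p under 0.05, all lower in KO mice, against 1080 of all genes. KO and WT mice did not overlap for 3 of the 41 genes on heme (0.882% of all genes) and for 5 on the control diet (0.893% of all genes). On the control diet all 14 smooth muscle markers lay below 0 in KO relative to WT mice (median -0.63, 0 called), and without WT control mice 1 and 2 the median was -0.16, with 13 of 14 below 0. Their part in these values was not tested. The comparisons with KO heme-fed mice share those mice with the heme effect above.

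Ehhadh was the gene called. Its signals in the 6 KO heme-fed mice (at most 563) all lay below those of the 6 WT heme-fed mice (at least 635), with a log2 fold change of -0.60 (-0.83 to -0.37, limma adjusted p = 0.00686). On the control diet the genotypes overlapped and the value was -0.083 (-0.32 to 0.15, adjusted p = 0.991). The call on heme stood without KO heme-fed mouse 1 (-0.49, adjusted p = 0.00496). It was lost on leaving out any of WT control mouse 5, WT heme-fed mice 2, 3 and 6, KO control mouse 1 and KO heme-fed mice 4 and 5 (adjusted p up to 0.0229) and without both WT control mice 1 and 2 (-0.60, adjusted p = 0.0112). The call was also lost with centred arrays (-0.60, limma adjusted p = 0.0156) and with only the groups compared in the fit (-0.60, limma adjusted p = 0.0983).

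Hsd17b4, the other bifunctional enzyme, lay lower in every KO mouse than in any WT mouse on either diet but was not called. Its signals ran from 290.4 to 388 (median 371) in KO heme-fed mice, against 396 to 461 (median 438) in WT heme-fed mice, a log2 fold change of -0.28 (adjusted p = 0.0172). On the control diet they ran from 252 to 280.4 (median 277) in KO mice, against 309, 300.3, 306, 326 and 301 in WT mice, and the value was -0.18 (adjusted p = 0.615). Acaa1b gave -0.49 on heme (unadjusted p = 0.0134, limma adjusted p = 0.248) and -0.55 on the control diet (unadjusted p = 0.00944, adjusted p = 0.662), where the genotypes did not overlap. Abcd3 gave -0.17 and -0.20 on these diets, again without a call. Scp2 lay the other way on heme, with all 6 KO mice above all 6 WT mice (0.21, unadjusted p = 0.000895, limma adjusted p = 0.0755), as did Acadsb with overlap (0.22, adjusted p = 0.172). The other genes at an unadjusted p under 0.05 were Eci1 (-0.19) and Acsl5 (-0.14) on heme, and Eci2 (-0.20), Crot (-0.20), Ech1 (-0.17) and Etfdh (-0.15) on the control diet. The summed signal of 11 immune markers ran from 1256 to 4213 (median 2299) in KO heme-fed mice, against 1588 to 1943 (median 1711) in WT heme-fed mice, with 0 of 11 called and a median log2 fold change of 0.27. On the control diet it ran from 1959 to 2712 (median 2345) in KO mice, against 1299 to 2102 (median 1925) in WT mice, with 0 of 11 called, all 11 above 0 and a median of 0.27. The part of immune cells in these values was not tested.

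**Figure D3:**
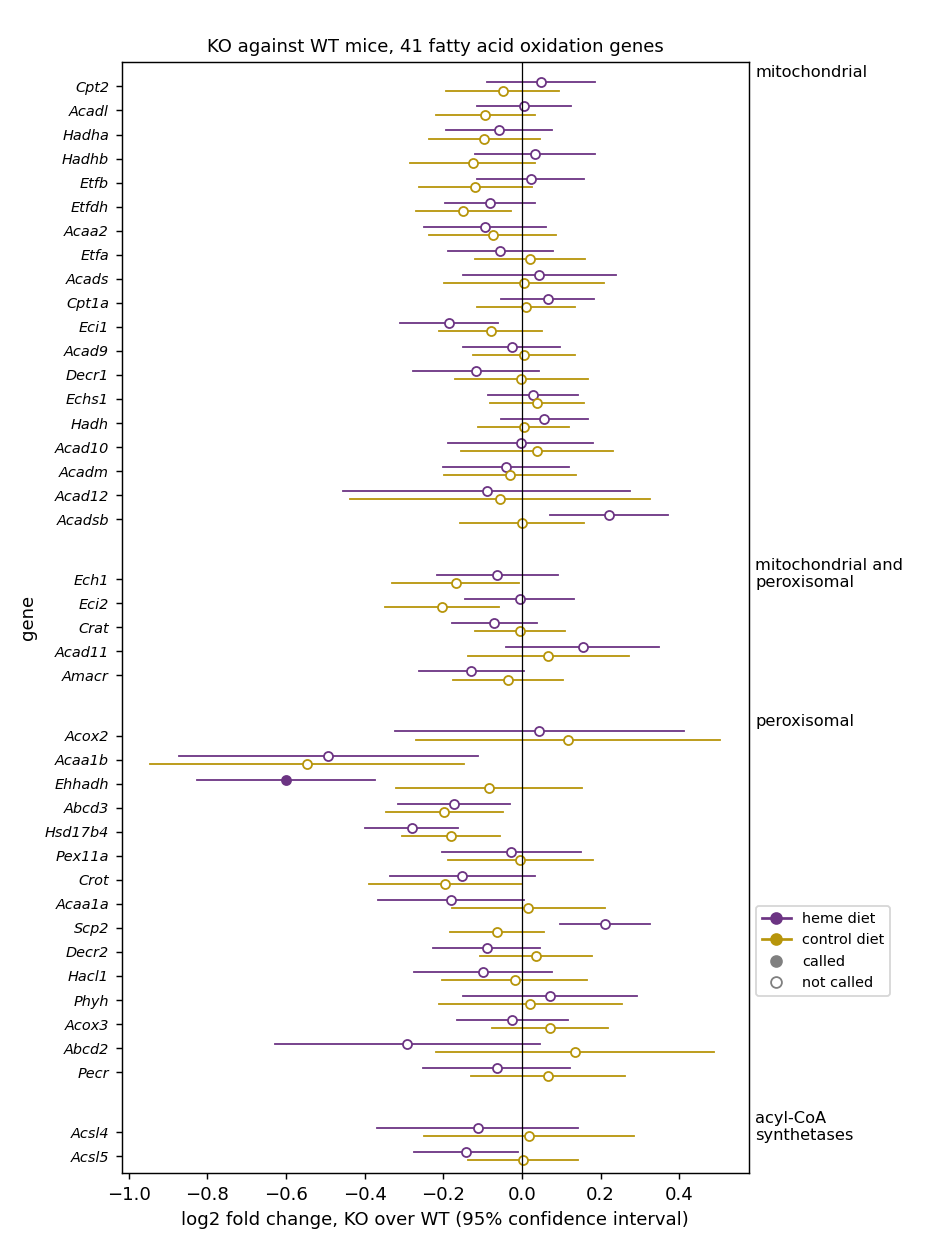
Log2 fold change of KO over WT mice for each of the 41 genes (points) with its 95% confidence interval (lines), on heme (purple, upper) and on the control diet (ochre, lower). Ehhadh on heme was called (filled), and 12 of the 15 peroxisomal genes lay below 0 on heme, against 10 of the 19 mitochondrial genes.

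The heme effect in KO mice minus that in WT mice was tested as an interaction. Limma called 0 of the 41 genes, where 0.0106% of all genes were called, and 3 of the 41 genes had an unadjusted p under 0.05, against 1271 of all 18820. These were Scp2, with a difference of 0.27 on the log2 scale (0.11 to 0.44, unadjusted p = 0.00237, limma adjusted p = 0.5), Ehhadh with -0.52 (-0.84 to -0.19, unadjusted p = 0.00341, adjusted p = 0.505) and Acadsb with 0.22 (0.0042 to 0.44, unadjusted p = 0.0461, adjusted p = 0.732). Without WT control mice 1 and 2 the difference for Acadsb was 0.11. For the other genes with large heme effects the intervals were -0.10 to 0.30 for Cpt2, -0.075 to 0.27 for Acadl, -0.16 to 0.23 for Hadha and -0.18 to 0.23 for Abcd3, and wider for Acox2 (-0.61 to 0.46) and Acaa1b (-0.50 to 0.60).

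Mitochondrial and peroxisomal genes were then set side by side. Heme raised 11 and lowered 0 of 19 mitochondrial genes in KO mice (median log2 fold change 0.31), and raised 10 and lowered 1 in WT mice (median 0.32). Of 15 peroxisomal genes 8 rose and 0 fell in KO mice (median 0.30), and 8 rose and 0 fell in WT mice (median 0.33). In KO against WT mice on heme the median was -0.10 for peroxisomal and -0.003 for mitochondrial genes, beside -0.0053 for all genes. The control diet gave medians of -0.004 for peroxisomal and -0.03 for mitochondrial genes, beside -0.0001 for all genes.

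The same contrast was described in each mouse from the mean of the centred log2 values of each class, without a test, since the genes were chosen with results known. The mitochondrial mean minus the peroxisomal mean ran from -0.004 to 0.038 (median 0.021) in KO heme-fed mice, from -0.014 to 0.145 (median 0.058) in KO control mice, from -0.183 to -0.029 (median -0.123) in WT heme-fed mice and from 0.004 to 0.113 (median 0.029) in WT control mice. All 6 WT heme-fed mice thus lay below all other mice. The separation was lost without Ehhadh and without Acaa1b. Without both genes the difference ran from -0.068 to 0.105 in KO heme-fed, -0.099 to 0.085 in KO control, -0.098 to 0.058 in WT heme-fed and -0.050 to 0.083 in WT control mice, and the 4 groups overlapped. KO heme-fed mouse 1 was at -0.11 for the mitochondrial and -0.10 for the peroxisomal mean, among the control mice on both.

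**Figure D4:**
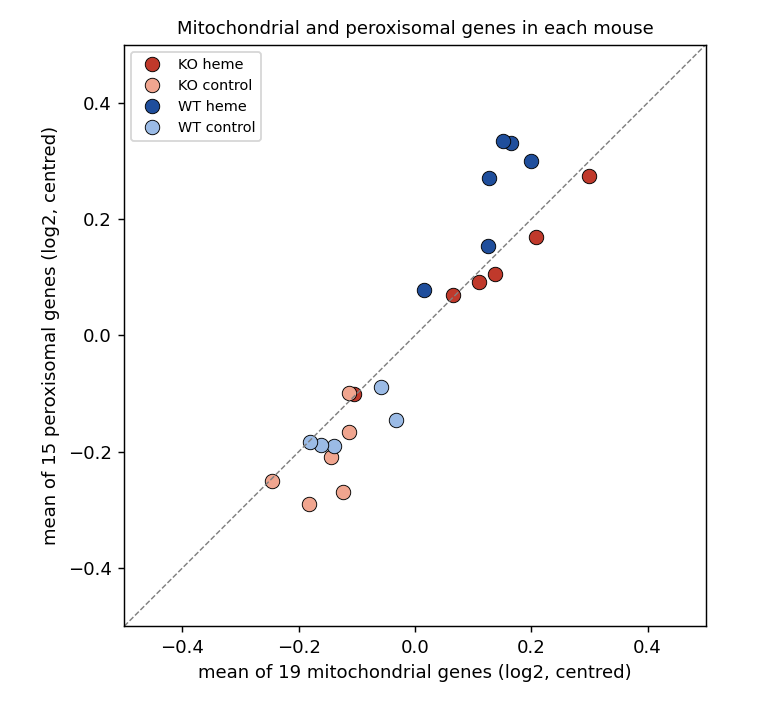
Mean of the 19 mitochondrial genes (horizontal axis) and of the 15 peroxisomal genes (vertical axis) in each of the 23 mice, as log2 values centred on each gene's mean, with the line of equality dashed. The 6 WT heme-fed mice lie further above the line than any other mouse, and KO heme-fed mice 1 and 5 and KO control mouse 5 lie just above it. KO heme-fed mouse 1 lies among the control mice.

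Other genes of the pathway are given from lists of related genes. For these lists too, 9.23% of all genes were called higher on heme in KO mice and 9.6% in WT mice. These shares are for all arrays, and none was set beside the counts without WT control mice 1 and 2. Of 11 measured genes of carnitine and fatty acid supply, 6 rose and 0 fell in KO mice, and 7 rose and 0 fell in WT mice. Leaving out WT control mice 1 and 2 gave 6 higher in KO mice and 5 in WT mice. Slc25a20, the carnitine-acylcarnitine translocase between the carnitine palmitoyltransferases, changed by 0.99 in KO and 0.83 in WT mice, and Acacb, which forms the malonyl-CoA that inhibits Cpt1, by 1.10 in KO and 0.70 in WT mice. Slc27a2, a very-long-chain acyl-CoA synthetase and transporter, had 0.57 in KO mice (limma adjusted p = 0.0671) and rose in WT mice (1.05, adjusted p = 0.00222). Of 25 genes of peroxisome assembly and the peroxisomal matrix 7 rose in KO mice and 9 in WT mice, and 0 fell in either. Leaving out WT control mice 1 and 2 gave 6 higher in KO mice and 4 in WT mice. Catalase (Cat), which breaks down hydrogen peroxide, gave 0.71 in KO and 1.17 in WT mice, and its KO against WT value on heme was -0.45 (limma adjusted p = 0.0452). The membrane protein gene Pxmp4 gave 0.72 in KO and 0.65 in WT mice.

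General mitochondrial genes rose as well. Of 16 housekeeping genes of mitochondria (import, chaperones, porins and the citrate synthase Cs), 12 rose and 0 fell in KO mice (median 0.30), and 15 rose and 0 fell in WT mice (median 0.30). Leaving out WT control mice 1 and 2 gave 11 higher in KO mice (median 0.30) and 8 higher in WT mice (median 0.28). Tomm40, the import pore of the outer membrane, had the largest change (0.68 in KO and 0.69 in WT mice), followed by the prohibitin gene Phb (0.53 in KO and 0.55 in WT mice). Of 10 nuclear receptor and coactivator genes 0 rose and 2 fell in each genotype, and 1 fell in WT mice on leaving out WT control mice 1 and 2. Of all genes, 9.2% were called lower on heme in KO mice and 8.29% in WT mice. Ppargc1a, a coactivator that promotes mitochondrial genes, was lower on heme (-0.85 in KO and -0.66 in WT mice). Of 10 markers of surface colonocytes 3 rose and 0 fell in each genotype, among them Aqp8 (1.13 in KO and 1.12 in WT mice) and Krt20 (0.47 in KO and 0.50 in WT mice). The median log2 fold change of the list was -0.005 in KO mice (6 of 10 below 0) and -0.003 in WT mice (5 of 10 below 0). The mean of its centred log2 values was higher on heme, at 0.105 against -0.08 in KO mice. In WT mice it was 0.061 on heme against -0.104 on the control diet. Of 7 adipocyte markers 1 rose and 0 fell, namely Cidec (1.28 in KO and 1.21 in WT mice), a lipid droplet protein. The list went both ways, with 3 of 7 above 0 in KO mice (median -0.147) and 2 of 7 in WT mice (median -0.069). Adipoq and Plin1, which define fat cells, were not called. Adipoq gave -0.25 in KO and -0.14 in WT mice, at low mean signals of 25.8 to 33.1, and Plin1 gave -0.24 and -0.069. The part of changes in cell composition in these values was not tested beyond the covariates named.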

How the data were processed

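Colon mucosa RNA of 23 mice was hybridised to whole-transcript Affymetrix arrays on a single plate, from 100 ng per mouse, and 1 WT control array had been left out by the authors for quality. The deposited values are log2 signals per probe set, which the authors made by Robust Multi-array Average (RMA, version not given in the sources used here). Their text describes reorganised probe sets, while the deposited table holds the manufacturer's, so probes behind a gene may differ. Values were used as deposited, and 0 columns were left unmatched to samples. Of 35556 probe sets 21218 had 1 symbol, updated by Entrez number through RefSeq (GRCm38.p6), and 1881 with several were not used. The brightest probe set stood for each of 1386 genes with several. No probe coordinates are given.

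limma 3.58.1 (R 4.3.3) fitted the 4 groups in 1 model, with Benjamini-Hochberg adjustment over 18820 genes. The thresholds (adjusted p under 0.01, mean signal above 20) are the study's, which names no test. The fit was tested on simulated data with 200 changed genes. The authors' kits are described differently in labels and text. Arrays give no read depth, and the number of arrays limits precision. Members and gene lists were chosen with earlier results of these data known, the lists from general knowledge. Members described in full were those called between genotypes or in the interaction, the 3 with the smallest interaction p, and in each class up to 4 called ones with the largest heme effect. Other members appear by fold change, and other lists by counts with up to 3 called examples. Hsd17b4, Adipoq, Plin1, and the uncalled or Ppara values named beside a result were added after values were seen. Alternatives were centred arrays, averaged probe sets, other thresholds, array weights, only the groups compared, muscle signal as a covariate, the replicate number as a block and each array left out. The epithelial covariate, the second Hadhb probe set, class means without Ehhadh or Acaa1b, and leaving out WT control mice 1 and 2 were added after seeing the data. Promoters were searched in Python 3.11.15 (Biopython 1.88). Figures used matplotlib 3.10.9.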

Additional observations from a re-analysis of the deposited data

Results flagged for a closer look

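Among 64 groups of 5 or 6 mice, 2 held a mouse far from the rest of its group, and chance gives about 1 in 20 groups. Cpt2 in KO heme-fed mouse 1 was at 10.04 on the log2 scale, while the next lowest mouse of the group was at 10.34. This gap was 0.701 of the whole range of the group. Ech1 in KO control mouse 4 was at 9.51, with the next lowest mouse at 9.73 and a gap of 0.659 of the range.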

How the results depend on the processing

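The replicate numbers were not taken to pair the mice. Of 33 pairs with the same number 11 had correlated deviations above 0.1 (range -0.27 to 0.287). Pairs with different numbers were not looked at, so this count cannot tell whether mice were paired. With the replicate block 23 members were called on heme in KO mice, 22 in WT mice and 1 between the genotypes on heme. The count of members changed by heme in WT mice fell to 10, against 23, with the smooth muscle covariate; the cause was not tested. The count between KO and WT mice on heme was 0, against 1, with centred arrays, with only the groups compared and without both WT control mice 1 and 2, and was 2 at an adjusted p under 0.05 and with array weights; the cause was not tested. Leaving out each array in turn gave 20 to 24 members on heme in KO mice, 19 to 23 in WT mice, 0 to 1 between the genotypes on heme, and 0 on the control diet and in the interaction. The medians then ran from 0.278 to 0.334 (mitochondrial, KO), 0.285 to 0.343 (mitochondrial, WT), 0.261 to 0.343 (peroxisomal, KO) and 0.253 to 0.40 (peroxisomal, WT). Over 30 comparisons of named members, 1026 of 1050 alternative values kept direction and call, 24 lost the call and 0 changed direction. For 23 of these 30 comparisons no alternative changed the call. The 30 include the interactions of Scp2, Ehhadh and Acadsb, which had no call to lose. They leave out members not described in full, such as Crot in WT mice and Eci1 in KO mice. Those calls were lost on leaving out any of 19 and any of 14 single arrays. Precision is limited by 5 or 6 arrays per group, and signals near 20, such as that of Abcd2, bound little.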
